A study of Mus musculus with 2 samples.

Results

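The data describe Smad2/3 occupancy around 6 genes of the cytostatic programme of TGF-beta, namely Cdkn1a, Cdkn2b, Myc, Id1, Id2 and Id3. Occupancy was read from 1 list of called regions in mouse genome build mm9. A region was taken as a member when its centre lay in a window of 210 or 220 kb named for one of the genes. The windows held 11 of the 5847 regions, and every one of the 6 windows held at least 1. The list came from 1 anti-Smad2/3 chromatin immunoprecipitation sequencing (ChIP-seq) library of NMuMG cells, an established epithelial line derived from the mammary gland of mice. TGF-beta3 had been added to these cells for 1.5 h at a dose of 1 ng/ml, with 10% fetal bovine serum present, and their growth medium held insulin at 10 ug/ml. An input library of cells treated the same way was the only other sample, and no untreated cells were analysed here. With 1 library and no replicate there was no test, so every value below is a description of this list.

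Smad2 and Smad3 are phosphorylated by activated TGF-beta receptors, join Smad4 and enter the nucleus, where they bind DNA together with other transcription factors. In epithelial cells TGF-beta is known for arresting growth. The arrest is tied to higher expression of the cyclin-dependent kinase inhibitors p21 (Cdkn1a) and p15 (Cdkn2b) and to lower expression of Myc and of the Id genes. Id proteins are helix-loop-helix factors without a basic DNA-binding region. They hold other helix-loop-helix factors away from DNA, and they are also well-known targets of the BMP pathway. The list holds no expression values, so none of these changes was measured here.

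No mm9 gene models or sequence were used. A region in a window is therefore not assigned to a gene, and its distance is given from the middle of the window. Window ends were given to the nearest 10 kb, so the middle marks a neighbourhood and not a start site. In the order of protein-coding genes in RefSeq (assembly GRCm38.p6), Cdkn1a lies between Srsf3 and Rab44, and Cdkn2b between Cdkn2a and Dmrta1. Myc lies between A1bg and Gsdmc, Id1 between Mcts2 and Cox4i2, Id2 between Kidins220 and Rnf144a, and Id3 between Rpl11 and E2f2. Cdkn2a encodes further cell cycle inhibitors, and E2f2 a transcription factor of the cell cycle.

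RefSeq promoter sequences of GRCm38.p6, from 250 bases before to 50 bases after the gene start, were matched by symbol for 4 of the 6 genes. Those of Id2 and Id3 are shown because their windows held the most regions, and that of Cdkn2b because its window held the narrowest one. They run 5′ to 3′ on the strand of the gene. Capitals mark CAGAC or its complement GTCTG, which holds the core of the SMAD binding element, and GGCGCC, a GC-rich motif known from SMAD-responsive Id promoters. Their coordinates, chr4:89310983-89311282 (minus strand) for Cdkn2b, chr12:25096043-25096342 (minus strand) for Id2 and chr4:136143572-136143871 (plus strand) for Id3, belong to GRCm38.p6 and cannot be set beside the mm9 regions.
Cdkn2b: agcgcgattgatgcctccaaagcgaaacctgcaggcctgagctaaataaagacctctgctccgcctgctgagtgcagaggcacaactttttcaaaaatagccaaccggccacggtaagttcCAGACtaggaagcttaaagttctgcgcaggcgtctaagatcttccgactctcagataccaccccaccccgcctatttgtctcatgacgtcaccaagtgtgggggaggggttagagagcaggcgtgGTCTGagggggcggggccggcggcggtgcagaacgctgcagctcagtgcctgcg
Id2: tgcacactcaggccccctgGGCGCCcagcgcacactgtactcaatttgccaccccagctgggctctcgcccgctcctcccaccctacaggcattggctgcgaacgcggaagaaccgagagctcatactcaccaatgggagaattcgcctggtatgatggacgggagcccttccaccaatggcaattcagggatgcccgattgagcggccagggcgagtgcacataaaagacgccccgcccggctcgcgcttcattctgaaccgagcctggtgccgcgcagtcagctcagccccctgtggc
Id3: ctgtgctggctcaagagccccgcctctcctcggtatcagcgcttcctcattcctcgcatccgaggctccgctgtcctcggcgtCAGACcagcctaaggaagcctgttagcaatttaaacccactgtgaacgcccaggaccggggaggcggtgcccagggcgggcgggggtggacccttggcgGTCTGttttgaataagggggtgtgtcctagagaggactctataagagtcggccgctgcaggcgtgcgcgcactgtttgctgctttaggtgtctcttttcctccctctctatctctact

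The Cdkn2b promoter held 2 copies of CAGAC or GTCTG, beginning 129 and 4 bases before the gene start. That of Id3 also held 2, beginning 167 and 68 bases before it. The Id2 promoter held none of these and 1 copy of GGCGCC, beginning 231 bases before the start. Cdkn1a has 2 promoter entries, and each held 1 copy of GTCTG and no GGCGCC. Among all 32851 promoters in the table, 49.6% held CAGAC on either strand, 16.2% held at least 2 copies, and 11.9% held GGCGCC. The palindrome GTCTAGAC was in none of the member promoters and in 0.213% of all promoters. These matches describe letters, and whether any listed region covers these promoters could not be read from the file.

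The windows of the Id genes held 8 of the 11 regions, and those of Cdkn1a, Cdkn2b and Myc held 1 each. By window, Id1 held 2 regions, and Id2 and Id3 held 3 each. To give a background, windows of the same length were laid end to end along every chromosome. At least 1 region lay in 25.2% of 12045 windows of 210 kb and in 26.1% of 11495 windows of 220 kb, where 6 of the 6 member windows held one. At least 2 regions, as at Id1, lay in 11.5% of the windows of 210 kb (exact 95% interval 11.0 to 12.1%). At least 3 lay in 5.65% of windows of 210 kb, the length used for Id2, and in 6.04% of windows of 220 kb, the length used for Id3. Counted per length, the Id2 window held 14.3 regions per Mb, the Id3 window 13.6 and the Id1 window 9.52. The Cdkn1a and Myc windows held 4.55 each and the Cdkn2b window 4.76, against 2.31 over the whole list. These are the values that 1 region gives in windows of 220 and 210 kb, the lowest for any window with a region. That they exceed 2.31 therefore says no more than that each of these windows held 1 region. The tiled windows were not chosen to hold a gene, whereas each member window was, and a background of windows around other genes was not run. The counts of Cdkn1a, Cdkn2b and Myc are those of 1 region in a class that takes in 25.2 to 26.1% of all tiles.

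**Figure D1:**
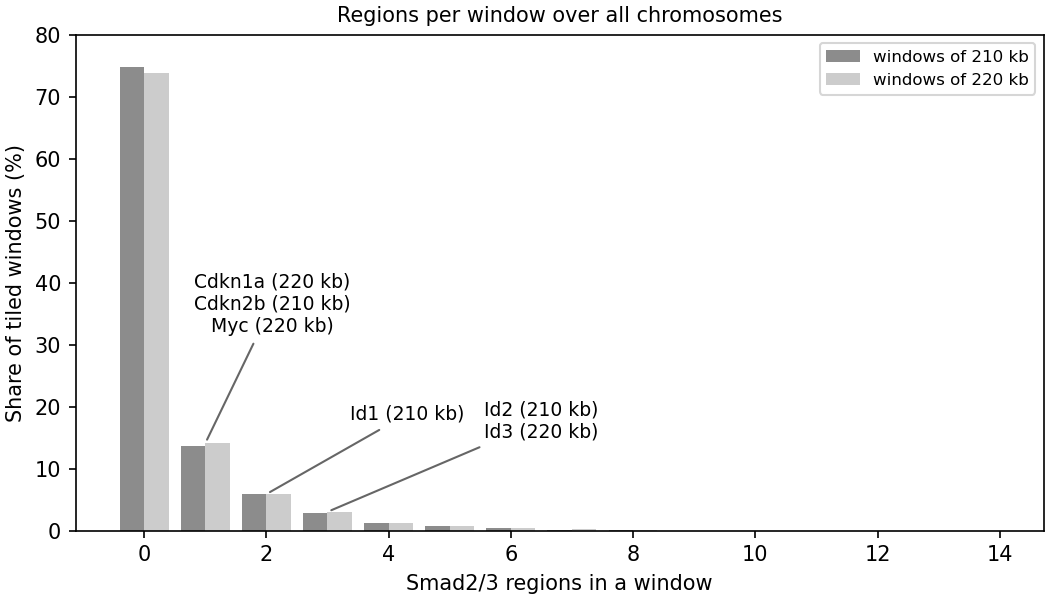
Share of end-to-end windows (y axis, percent) by the number of Smad2/3 regions they held (x axis), for windows of 210 kb (dark bars) and 220 kb (light bars), with the 6 member windows written at their own counts. Windows with 0 regions were 74.8% of those of 210 kb and 73.9% of those of 220 kb, and no member window was among them.

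Cdkn1a encodes p21, an inhibitor of cyclin-dependent kinases that is also a classical p53 target. Its window, chromosome 17 from 29.12 to 29.34 Mb, held 1 region at chr17:29182901-29183449. The region was 549 bp wide, wider than 79.0% of the list, and was number 2529. Its centre lay 46.8 kb below the window middle, and the nearest other region was 132.0 kb away, so it stood alone in its window. The nearest regions outside lay 68.9 kb below the window (number 696, 299 bp) and 232.0 kb above it (number 1234, 349 bp). Both came earlier in the list than the region inside.

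Cdkn2b encodes p15, which inhibits the kinases CDK4 and CDK6. The window on chromosome 4 from 88.85 to 89.06 Mb held 1 region at chr4:88942601-88942749, with its centre 12.3 kb below the middle. It was the narrowest of the 11, at 149 bp, and the latest in the list, as number 5574. Of all regions, 95.2% were wider, 4.62% had the same width and 0.171% were narrower. The nearest other region was 183.0 kb away, the longest such distance among the members. Below the window, the nearest region lay 147.0 kb outside it and was 699 bp wide (number 1232). If only regions at or above the median width of the list are kept, the Cdkn2b window holds 0 regions.

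A dense group of Smad2/3 regions lay just outside the Cdkn2b window, on the side of higher coordinates. Between the upper end of the window and 250 kb from its middle there were 10 regions, from chr4:89125401-89125699 to chr4:89196801-89197299. They were 249 to 649 bp wide, with a median of 524.0 bp, and their list numbers ran from 274 to 4246. Of these, 7 belonged to a cluster, meaning a run of at least 3 regions with centres no more than 12500 bp apart. One cluster held 4 regions, from 89142401 to 89154099, and another held 3, from 89171901 to 89175449. The earliest in the list was number 274 at chr4:89190351-89190699, followed by number 333 at chr4:89142401-89142949. Together with the member, 11 regions lay within 250 kb of the middle, and 0.317% of 5053 tiled windows of 500 kb held at least as many. The distance was chosen after the positions were seen, and the nearest of these regions lay 65.5 kb beyond the window. The Cdkn2b count thus depended on the window: widening it by 100 kb on each side raised the number from 1 to 6.

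Myc encodes a transcription factor that drives cell growth and division. Its window, chromosome 15 from 61.71 to 61.93 Mb, held 1 region at chr15:61910801-61911349, which was 549 bp wide and number 2982. The centre lay 91.1 kb above the middle, near the upper end of the window. With the window narrowed by 50 kb on each side, the Myc count was 0. A second region of 499 bp, number 2551, lay 20.7 kb beyond that end at chr15:61950451-61950949, so the pair were 39.6 kb apart. Below the member, the next region was 546.0 kb away. In the RefSeq order of protein-coding genes, Gsdmc follows Myc on the side of higher coordinates, and none of these regions is assigned to a gene.

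Id1 carried the earliest members of the list. Its window, chromosome 2 from 152.46 to 152.67 Mb, held a region of 649 bp at chr2:152565101-152565749, number 303, and one of 599 bp at chr2:152567051-152567649, number 639. The former was wider than 88.0% of the list and the latter wider than 83.8%. The centres lay 0.424 and 2.35 kb above the window middle, and 1301 bp separated the edges. No other member had a neighbour within 12500 bp. Of the 5827 neighbouring pairs in the list, 7.74% were as close as this pair or closer. At least 2 regions within 20 kb, as around the middle of this window, lay in 0.68% of 126576 tiled windows of 20 kb. That length was chosen after the positions were seen, and the share was 11.5% for the full window length of 210 kb. Apart from the pair, the next region was 389.0 kb below (249 bp, number 5639) and 851.0 kb above (799 bp, number 3448). Such gaps are to be read beside a sparse list, in which the median tiled window of 500 kb held 0 regions.

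Id2 had the widest member. The region at chr12:25783101-25784049 spanned 949 bp, wider than 97.5% of the list, and only 117 of the 5847 regions were wider. Its list number was 2661. Among the 200 regions nearest to it in list order, the median width was 349.0 bp and 1 was wider. The other regions of the window, chromosome 12 from 25.67 to 25.88 Mb, were narrower. One of 249 bp lay at chr12:25825151-25825399 (number 5269) and one of 299 bp at chr12:25866201-25866499 (number 2499). All lay above the middle, at 8.57, 50.3 and 91.3 kb, with steps of 41.7 and 41.1 kb between centres. Of the neighbouring pairs in the list, 37.4% and 37.2% were as close or closer, so these steps were ordinary for the list. The Id2 count rested on the narrower regions: with only regions at or above the median width kept it was 1, and 16.8% of tiled windows then held at least 1. With the window narrowed by 50 kb on each side, the Id2 count was 2.

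Id3 held 3 regions of similar width on both sides of the middle of its window, chromosome 4 from 135.59 to 135.81 Mb. The region of 399 bp at chr4:135700401-135700799, number 2951, had its centre 0.6 kb above the middle. One of 299 bp, number 1210, lay 26.8 kb below the middle at chr4:135673051-135673349. Another of 349 bp, number 1414, lay 43.2 kb above it at chr4:135743051-135743399. The outer pair were narrow for their place in the list, where the 200 nearest regions in list order had a median of 449.0 bp in either case. Of these 200, 168 were wider than number 1210 and 132 wider than number 1414. All 3 regions lay within 50 kb of the middle, a distance chosen after the positions were seen. Of 25307 tiled windows of 100 kb, 2.0% held at least 3, against 6.04% for the full window length of 220 kb. The nearest regions outside the window lay 290.0 kb below it (249 bp, number 4365) and 180.0 kb above it (399 bp, number 542).

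**Figure D2:**
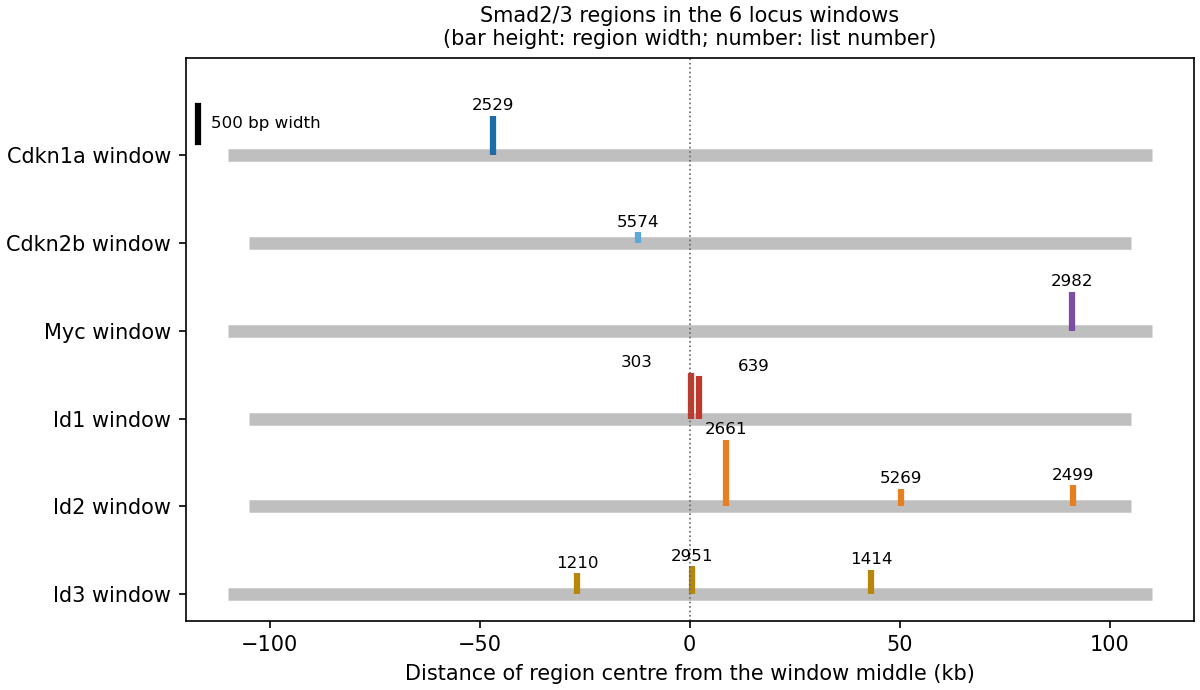
Smad2/3 regions in the 6 windows (grey bars), placed by the distance of their centre from the window middle (x axis, kb), with bar height giving region width (scale bar 500 bp) and the number above each bar its list number. The Id1 pair, 1 Id2 region and 1 Id3 region lie within 10 kb of the dotted middle line, and the Myc region lies near the upper end of its window.

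Regions near the window middle were found in the windows named for the Id genes. Within 10 kb of the middle lay 4 regions, 2 at Id1, 1 at Id2 and 1 at Id3, and the windows of Cdkn1a, Cdkn2b and Myc had 0. Of the 20 kb windows tiled over the chromosomes, 3.77% held at least 1 region. Within 20 kb the Cdkn2b region was added, which made 5. These distances were chosen after the positions were seen, and no test of the difference between Id and other windows was made.

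Widths of the 11 members, 149 to 949 bp, lay within the range of the rest, 99 to 1799 bp. Their median was 399.0 bp with an interquartile range of 299.0 to 574.0 bp, against 349.0 bp and 249.0 to 499.0 bp in the other 5836 regions. Of the members, 6 of 11 were wider than the list median (54.5%, exact 95% interval 23.4 to 83.3%), against 44.3% (43.1 to 45.6%) of the rest. The intervals cover counting error only. They take regions as independent, although members of a window share a locus. Ordered by width, the member at Id2 was the widest, followed by the Id1 pair at 649 and 599 bp and by the Cdkn1a and Myc regions at 549 bp each. The Id3 regions and the other Id2 regions spanned 249 to 399 bp, and the Cdkn2b region came last.

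List numbers of the members ran from 303 to 5574, with a median of 2529. The median of the rest was 2926. Of the members, 7 of 11 stood among the first 2923 regions. Whether the list is ordered by strength is not stated, and earlier regions were wider over the whole list. Among the 200 regions nearest in list order, 18 were wider than the Cdkn1a region and 15 wider than the Myc region, although both stood near the middle of the list. For the Cdkn2b region 159 of 200 were wider. Thus regions of 549 bp were wide for their place at Cdkn1a and Myc, and that at Cdkn2b was narrow even among late regions.

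**Figure D3:**
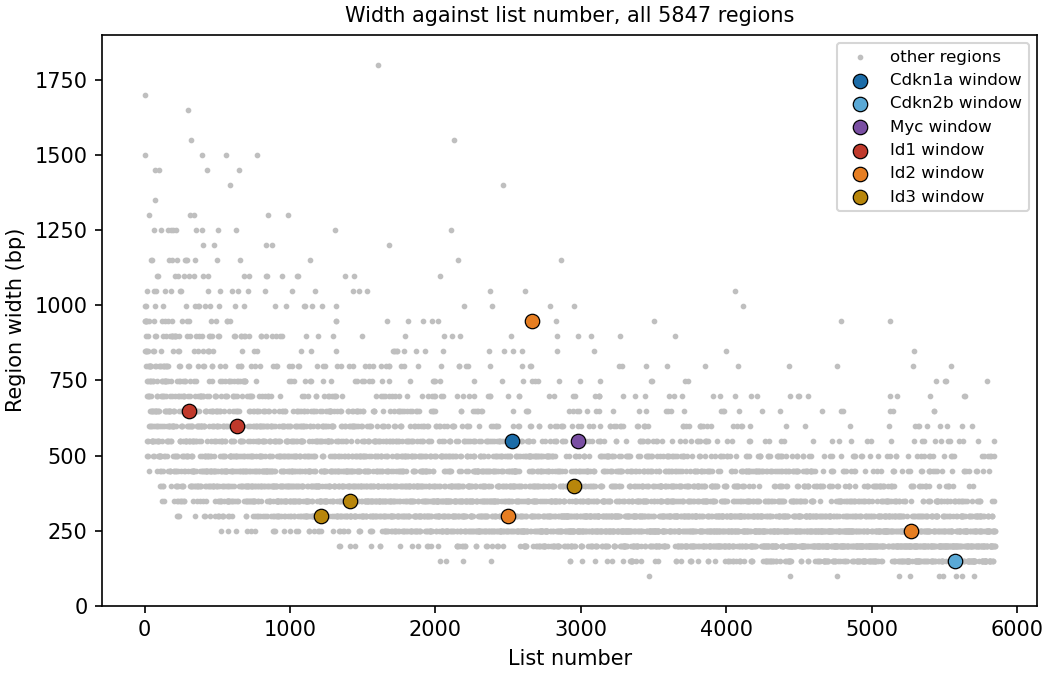
Width of each region (y axis, bp) against its list number (x axis), with grey points for the rest of the 5847 regions and coloured points for the 11 members. The Id1 pair lies early in the list, the Id2 region of 949 bp lies far above others of similar list number, and the Cdkn2b region of 149 bp lies at the lower right.

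Most members, like most of the rest, had no other region within 12500 bp. The median distance to the nearest other region was 41.1 kb for the 11 members and 27.5 kb for the rest (interquartile range 4.95 to 116.0 kb). The interquartile range of the members, 27.4 to 42.2 kb, takes in the median of the rest, and their distances ran from 1.93 to 183.0 kb. None of the 11 belonged to a cluster (0 of 11, exact 95% interval 0.0 to 28.5%), against 13.9% of the rest. With windows widened by 100 kb on each side, 4 regions in them belonged to a cluster, and with runs of at least 2 regions counted as clusters, the Id1 pair did. Another region within 12500 bp was found for 2 of 11 members, both at Id1, against 37.2% of the rest (exact 95% interval 35.9 to 38.4%). The interval of the 2 of 11 was 2.28 to 51.8% and takes in the share of the rest. The exact intervals of the members treat regions as independent, although these 2 are each other's nearest region. The only neighbours beyond 100 kb were those of Cdkn1a and Cdkn2b, whereas distances at Id2, Id3 and Myc lay between 27.4 and 42.6 kb.

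The wider surroundings differed in another way from the windows. Within 500 kb of the middle, Cdkn2b had 16 regions, Id3 had 10, Cdkn1a and Myc had 8 each, Id1 had 4 and Id2 had 3. Of 2522 tiled windows of 1000 kb, 0.278% held at least 16, 3.37% at least 10, 6.94% at least 8, 25.1% at least 4 and 33.9% at least 3. The order of the loci was thus not that of the windows, where Id2 and Id3 came first. At Id2, all 3 regions of this span lay inside the window.

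**Figure D4:**
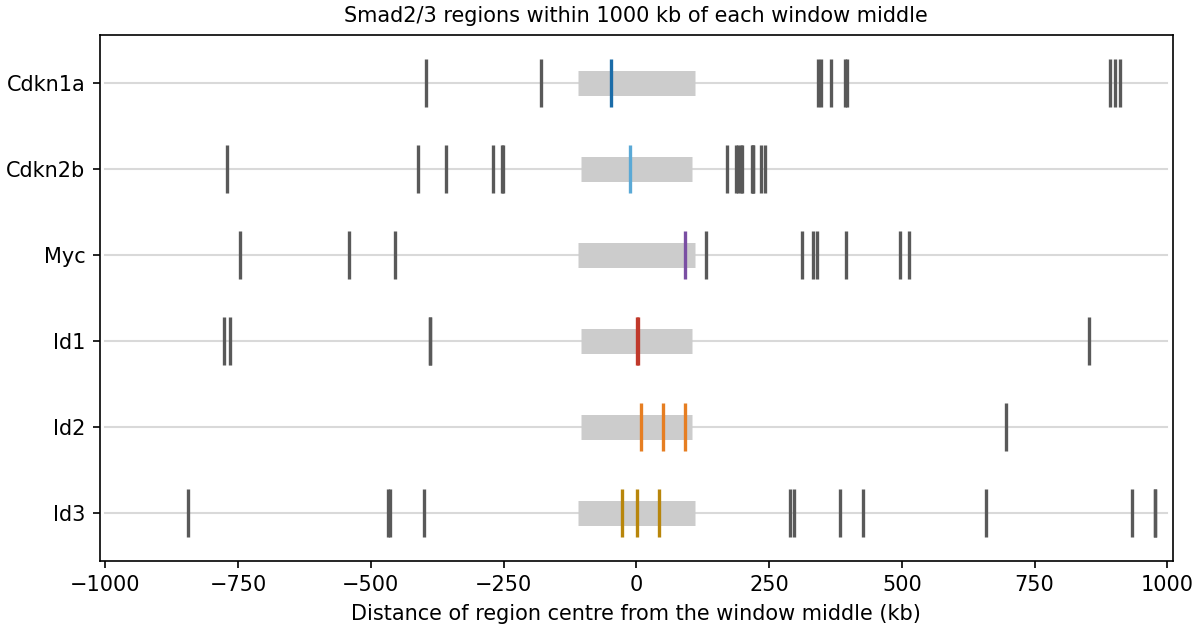
Smad2/3 regions (vertical lines) within 1000 kb of each window middle (x axis, kb), coloured inside the window (grey band) and dark outside it. A group of 10 regions lies above the Cdkn2b window, and no region is drawn below the Id2 window. In this whole span Id2 had 4 regions, and 49.9% of tiled windows of that length held at least as many.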

How the data were processed

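The members and lists were chosen with earlier results of these data known. The series holds 2 samples, and the processed file is a region list of the ChIP library. The submitters' processing notes name Bowtie2 and build mm9, with no version. For the peak caller, its threshold and the use of the input nothing is stated in the labels. The deposited score is 1000 in every line and the strand has 1 value, so neither ranks regions. The authors' running number is used as the list number, and what it ranks is not stated. There are no read counts, so depth is unknown. A list that passed a threshold misses weaker regions, and a window with few regions cannot be read as unbound.

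Positions are counted from 1. Centres were means of the BED start and end. Background windows were laid end to end from the first to the last region centre of each chromosome. Distances are between centres, and clusters are runs of at least 3 regions no more than 12.5 kb apart. Exact intervals are Clopper-Pearson at 95%. Every gene and every region in a window is named by rule. Python 3.11.15, pandas 2.3.3, NumPy 2.4.6 and SciPy 1.17.1 were used, and the functions were tested on simulated data. Alternatives changed the windows, the regions kept, the merging, the background and the cluster rule.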

Additional observations from a re-analysis of the deposited data

How the results depend on the processing

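The number of regions in the 6 windows, 11 as defined, was 18 with windows widened by 100 kb on each side and 7 with only regions at or above the median width. With spans around the window middle, chosen after seeing the data, it was 4 within 10 kb, 5 within 20 kb, 23 within 250 kb, 49 within 500 kb and 65 within 1000 kb. These follow from the changed span or the fewer regions. Median width, list number and distance stayed within 299.0 to 599.0 bp, 1210 to 2982 and 27.4 to 42.6 kb in all alternatives run for them. These intervals of the medians were taken from ordered member values. Their coverage is below 95%, so the medians are known less closely than the intervals show. The share of background windows with at least as many regions depended on the span and the regions kept, by an amount that differed between loci. Each share is for the count that the locus had in that alternative, which could differ from the main one. For Id2 it stayed at 5.65% with windows narrowed by 50 kb, but its count fell from 3 to 2. For Id3 it was 6.17% with only regions at or above the median width, and its count fell from 3 to 2. For Cdkn1a it was 33.5% with windows widened by 50 kb, at 1 region. With windows widened by 100 kb it was 22.8%, at 2 regions. With windows narrowed by 50 kb on each side it was 2.65% for Id3, 5.65% for Id1, 16.8% for Cdkn1a and 15.7% for Cdkn2b, and Myc had 0 regions. Widened by 100 kb, it was 13.3% for Id2 and Id3, 22.0% for Id1 and 2.9% for Cdkn2b, and widened by 50 kb, 9.45% for Id2 and 9.76% for Id3. With only regions at or above the median width it was 16.8% for Id2 and 5.95% for Id1, and Cdkn2b had 0 regions. With background windows on the chromosome of the locus it was 3.94% for Id2 and 32.5% for Myc, and moved less for the other loci. The number of regions in clusters, 0 as defined, was 4 with windows widened by 100 kb and 2 with clusters of at least 2 regions. The windows planned for other cytostatic genes were not run, as no mm9 annotation was used. No paired analysis was possible because a single library gave the list, so leaving out a replicate was not possible either. Depth is unknown, so absence from the list sets no limit on binding.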

Other observations

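The first Id2 region followed a long stretch without any listed region, which was picked out after the positions were seen. The distance to the region below it was 4.55 Mb, the fourth longest of 206 neighbour distances on chromosome 12 and number 49 of 5755 on the autosomes. Above the last Id2 region, the next one lay 605.0 kb away and, at 99 bp, was among the narrowest regions of the list. Other motifs were read in the member promoters of GRCm38.p6. The AP-1 motif TGANTCA was in none of the 5 entries and in 7.81% of all promoters. The E-box CANNTG, the kind of site bound by the helix-loop-helix factors that Id proteins hold back, was in the promoters of Cdkn1a, Cdkn2b and Id2, in none of its forms in that of Id3, and in 72.3% of all promoters.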
